A study of Pan troglodytes with 38 samples.

Results

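The transcripts of 10 secreted ligands of the transforming growth factor beta (TGF-beta) family were followed across the hearts of 38 chimpanzees (Pan troglodytes). The genes were TGFB1, TGFB2, TGFB3, BMP2, BMP4, BMP6, INHBA, INHBB, GDF15 and MSTN, taken by symbol from the 31373 genes of the deposited chimpanzee gene count table. All 10 had a row there, and 9 of them reached 6 CPM (gene counts scaled to sequencing depth) in at least 1 animal, the level used here for calling a gene expressed.

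Polyadenylated RNA from frozen post-mortem heart had been sequenced from 1 library per animal, so each animal is 1 sample. The paper states that some earlier libraries were sequenced again to gain depth. The labels name no treatment groups, and 7 animals carry notes of hepatitis B or C virus and 1 a note of exposure to HIV. Extraction date, sex, RNA integrity number (RIN, a score of RNA intactness), age, primate center and virus notes came from the study's sample table rather than from the deposited labels. RNA of 17 animals was extracted on 4 dates of an earlier year and RNA of 21 animals on 1 date of a later year, called here the earlier and the later extraction. There were 22 females and 16 males, aged 10 to 57 years where an age was given (34 animals), and RIN ranged from 2.5 to 8.4. Some of the animals are relatives, which no model here took into account. Human hearts were not analysed here.

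Ligands of this family are made as precursors, cleaved, and secreted as dimers. They bind pairs of type I and type II serine/threonine kinase receptors, which phosphorylate SMAD proteins that enter the nucleus and regulate transcription. TGF-beta ligands and activins act mainly through SMAD2 and SMAD3 and are known in the heart for driving fibroblast activation and collagen deposition, whereas bone morphogenetic proteins (BMPs) act mainly through SMAD1, SMAD5 and SMAD9 and induce the ID genes. The CPM values below are scaled to the counts on exons shared by human and chimpanzee. The totals behind them ran from 14408012 to 81603350. These totals come from a different count table than the gene counts, and an animal whose total is small beside its gene counts gets higher CPM. In the animal Little_R the total was 14408012, beside 22672739 gene counts outside mitochondrially encoded genes. In animal 537 these were 18946174 and 24988754, and in animal 295 they were 75774147 and 87819211. Levels are compared between animals for 1 gene at a time, because transcript lengths for the gene table were not used here and CPM does not rank different genes.

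The heart label was checked against marker genes, and some libraries stood apart. The summed level of 10 cardiomyocyte markers had a median of 86166 CPM. It was 11980 CPM in the animal named Little_R and 23856 CPM in animal 537, the lowest of the 38, and these animals also had the highest fibroblast marker sums (11693 and 11318 CPM, against a median of 1978). Animal 495 had the next lowest cardiomyocyte sum, 29216 CPM, and an endothelial sum of 3757 CPM, against a median of 1493. Little_R held 182 CPM of mesothelial markers, whose median was 10.3. Animal 549 held 40963 CPM of atrial markers and the lowest ventricular sum, 1029 CPM, so this sample carried an atrial profile. The skeletal muscle list was led by CKM and TNNT3, which heart also expresses, and its myosin genes MYH1, MYH2 and MYH4 stayed below 1 CPM in all animals. Mitochondrially encoded genes took between 17.2% and 60.1% of the gene counts.

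TGFB1 (ENSPTRG00000011021), the most widely studied ligand of the family, was detected in every heart. Its level was lowest at 9.61 CPM, had a median of 19.7 CPM and was highest at 96.8 CPM. The highest value belonged to animal 529, followed by 58.9 CPM in animal 537 and 45.1 CPM in animal 495. TGFB3 (ENSPTRG00000006562), a close relative of TGFB1 that is expressed by mesenchymal cells, ranged from 6.43 to 53.045 CPM with a median of 18.8 CPM. For TGFB3 the 3 highest animals, 537, 529 and 4x0519, lay close together between 44.98 and 53.045 CPM, and no animal exceeded 3 times the median.

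TGFB2 (ENSPTRG00000001992), which is required for the formation of cardiac valves and septa in development, ranged from 1.97 to 56.2 CPM with a median of 7.07 CPM. A single animal, 4x0025, held the top value, and the next was 25.3 CPM in 4x0519. TGFB2 is the one member matched here to the table of orthologous exons, with 8 exon pieces of 3569 bases in all on the plus strand of chromosome 1 between positions 197384155 and 197482357 (build Pan_tro_3.0). On those exons its level had a median of 3.41 CPM and was again highest in 4x0025, at 28.8 CPM. The 2 sets of values followed each other over the 38 animals (Pearson r = 0.97 on log2 values, a description of 2 counts from the same libraries).

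BMP4 (ENSPTRG00000006358), a ligand with roles in mesoderm and cardiac progenitor development, ranged more widely. The lowest animal had 3.74 CPM, the median was 9.44 CPM and the highest animal, Little_R, had 172 CPM. The next 2 animals, 537 and 4x0519, had 45.2 and 43.2 CPM. BMP2 (ENSPTRG00000013238), a ligand made by endocardium and myocardium during valve formation, ranged from 2.23 to 37.1 CPM around a median of 6.56 CPM, and animal 529 stood alone at the top ahead of Little_R at 16.2 CPM. BMP6 (ENSPTRG00000017705), made by endothelial cells and known for controlling hepcidin and iron in the liver, had a median of 4.07 CPM. Its lowest value was 0.692 CPM in animal 570 and its highest 33.6 CPM in animal 4x0519, with 13.3 CPM in animal 317 as the second. In the animals where the other ligands were highest, BMP6 was not: it stood at 5.21 CPM in Little_R, 3.75 CPM in 537 and 3.98 CPM in 529.

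INHBA (ENSPTRG00000044337) and INHBB (ENSPTRG00000046739) encode the beta subunits whose dimers form activins A and B. INHBA ranged from 1.598 to 75.5 CPM with a median of 7.495 CPM. Little_R was highest and 537 second, at 39.7 CPM. INHBB had the largest ratio of highest to lowest level among the expressed members, 303. It ranged from 0.361 to 110 CPM around a median of 3.39 CPM. Its top value was again in Little_R, 32.3 times the median, and the next animal, 495, had 12.8 CPM.

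GDF15 (ENSPTRG00000010707), a stress-induced ligand that signals through GFRAL in the hindbrain, was low. Its median was 0.727 CPM and its range 0.118 to 6.59 CPM, and only Little_R passed 6 CPM, ahead of 5.52 CPM in animal 558. These levels rested on 4 to 188 counts per animal, and at the median of 30 counts the counting error alone is 18.3%. MSTN (ENSPTRG00000012738) encodes myostatin, the muscle ligand that limits muscle growth. It was at or near the detection limit, with 0 to 20 counts per animal, a median of 0.0949 CPM and a highest value of 1.06 CPM in 537. In 4 animals it had no count, which allows levels of up to 0.0552 to 0.0964 CPM at their depths (3 counts, counting error only).

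**Figure D1:**
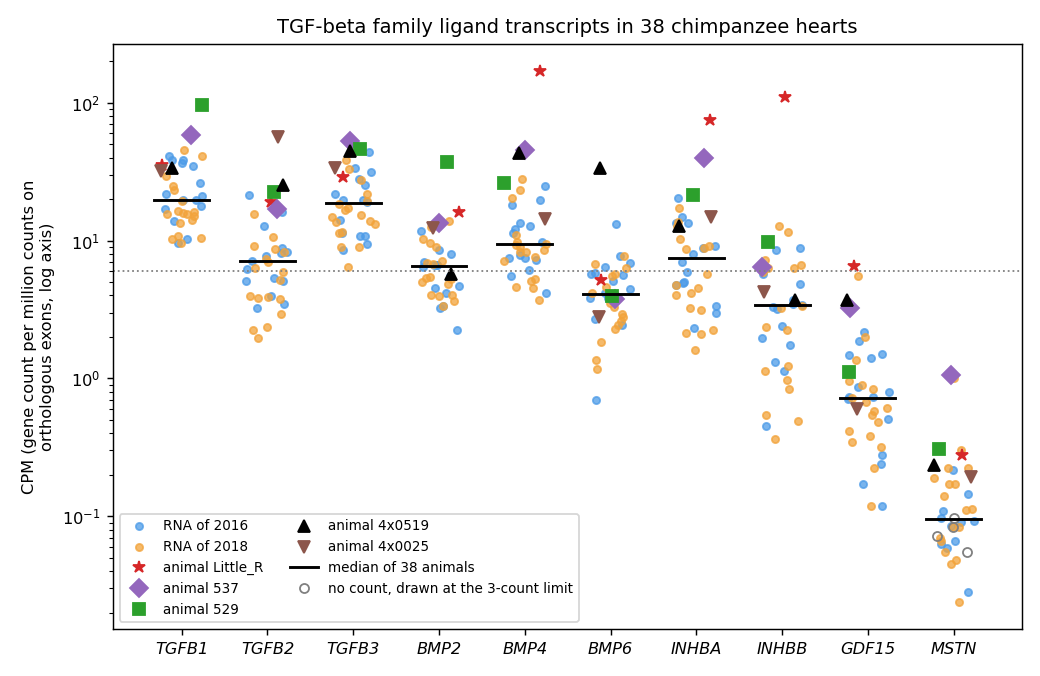
Level of each ligand in each of 38 animals, in CPM on a log axis; circles are single animals by extraction year, larger symbols are 5 named animals, black bars are medians and the dotted line is 6 CPM. Little_R tops BMP4, INHBA, INHBB and GDF15, animal 529 tops TGFB1 and BMP2, and 4x0519 stands alone for BMP6.

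High values were not spread evenly over animals. Little_R was the highest animal for BMP4, INHBA and INHBB, and for GDF15, which counts as expressed only through its level in that animal. It was the highest for 12.9% of the 13121 genes that reached 6 CPM in any animal, a set that genes can likewise enter through Little_R alone. Animal 529 was highest for 2 ligands and among the top 3 for 5, against 14.9% of all expressed genes among the top 3. Animal 4x0519 was also among the top 3 for 5 ligands (TGFB2, TGFB3, BMP4, BMP6 and GDF15), and it was among the top 3 for 8.97% of expressed genes. In 4x0519 the cardiomyocyte marker sum was 84869 CPM, close to the median of all animals. Its atrial sum, 13008 CPM, was the third highest.

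Spread between animals was measured as overdispersion, the variance left after counting error, relative to genes of similar mean level. How far its natural log lies above or below a LOESS curve fitted over 13121 genes is called dispersion here. Dispersion was above 0 for 8 of the 9 expressed ligands. Over all genes it was above 0 for 44.4%. INHBB had the highest value among the ligands, 1.73 (jackknife SE over 38 animals 1.06), followed by BMP4 at 1.69 (SE 0.75) and INHBA at 1.40 (SE 0.45). These residuals stood above those of 96.0%, 95.7% and 92.8% of genes.

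For the TGF-beta ligands, dispersion was 1.10 (SE 0.40) for TGFB2, 0.96 (SE 0.31) for TGFB1 and 0.79 (SE 0.18) for TGFB3. BMP6 (0.47, SE 0.67) and BMP2 (0.40, SE 0.52) lay within 1 SE of 0, and GDF15 was at the trend (−0.15, SE 0.36). Single animals carried much of some of these values. INHBB fell to 0.66 and BMP4 to 0.94 without Little_R, BMP6 fell to −0.19 without 4x0519, and BMP2 fell to −0.12 without 529. TGFB3 moved least and stayed between 0.69 and 0.81 when any 1 animal was left out.

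**Figure D2:**
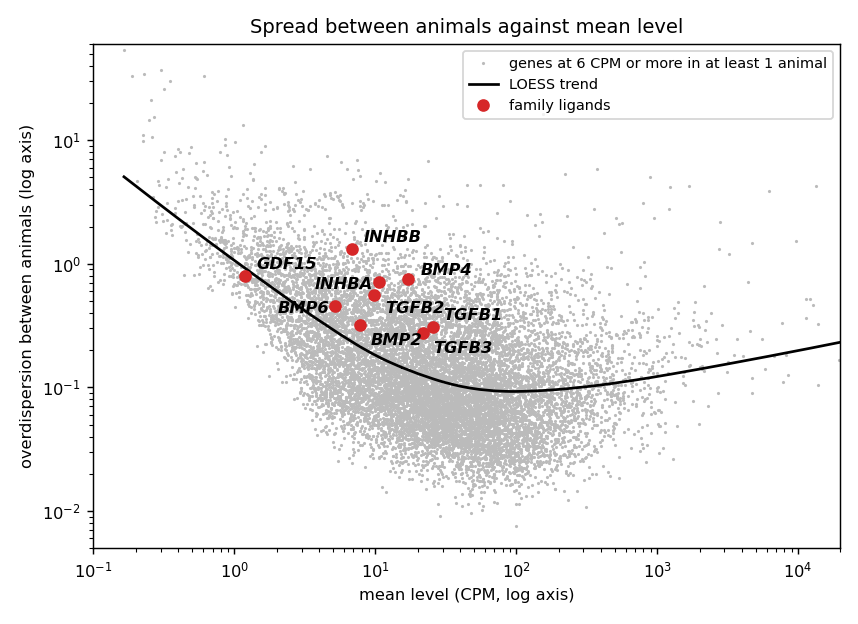
Overdispersion between animals against mean level (both log axes) for 13121 genes (grey points) with the LOESS trend (black line) and 9 family ligands (red). Of the ligands, 8 lie above the trend, INHBB and BMP4 farthest, and GDF15 lies at it.

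The ligands varied together. Pearson correlations of log2(CPM + 0.5) over the 38 animals were computed for the 36 pairs of expressed ligands, with permutation tests adjusted over the 36 pairs. All 36 were positive and 29 passed an adjusted p of 0.05, the lowest of these at r = 0.38. GDF15 counts as expressed only through its level in Little_R, here and in every relation below. Of its 8 pairs, 7 are among the 29. Among pairs drawn from every 10th expressed gene, 20.1% had r at least that high. The median over ligand pairs was r = 0.59, and over those other pairs 0.07. In bulk tissue, a smaller share of a cell type and less RNA per cell of that type cannot be told apart, and this applies to every relation below.

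By Pearson r, TGFB1 and TGFB3 were the most closely related pair (Pearson r = 0.81, Spearman rho = 0.81, adjusted permutation p = 4e-05 for r and 4.5e-05 for rho, n = 38). By rho, TGFB3 with BMP4 (0.85) and TGFB2 with TGFB3 (0.83) were higher. Both p-values of TGFB1 with TGFB3 rest on the smallest p that the permutations can give, 1e-05. Without the 2 animals farthest from the median of TGFB1 (529 and 537), r was 0.78, and it was 0.72 within the earlier extraction and 0.88 within the later. TGFB2 and TGFB3 followed (r = 0.80, rho = 0.83, same adjusted permutation p-values), with r = 0.81 without 4x0025 and 4x0519, 0.77 within the earlier extraction and 0.83 within the later extraction. The third pair of TGF-beta ligands, TGFB1 and TGFB2, had r = 0.66 and rho = 0.70, with r = 0.61 without 529 and 537, 0.49 within the earlier extraction and 0.79 within the later extraction.

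Among the other ligands, BMP4 had the closest relations. BMP4 and GDF15 had r = 0.79 and rho = 0.66 (adjusted permutation p = 4e-05 and 7.2e-05), and r was 0.68 without Little_R and 537, 0.70 within the earlier extraction and 0.83 within the later extraction. BMP4 and TGFB3 had r = 0.76 and rho = 0.85, with r = 0.76 without 503 and 537, 0.90 within the earlier extraction and 0.72 within the later extraction. BMP4 and INHBB had r = 0.71 and rho = 0.61, which fell to r = 0.55 without Little_R and 537, and was 0.47 within the earlier extraction and 0.78 within the later extraction. The 2 activin subunits, INHBA and INHBB, had r = 0.58 and rho = 0.46, and r = 0.40 without those 2 animals.

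BMP6 stood apart from the rest. It passed the test with 1 of its 8 partners, TGFB2 (r = 0.43, rho = 0.39, adjusted permutation p = 0.00935 and 0.0194), whereas each other ligand passed with 7 or 8. Its lowest correlation was with BMP2 (r = 0.01, adjusted permutation p = 0.934). Without 4x0025 and 4x0519, r between TGFB2 and BMP6 was 0.45. It was 0.38 within the earlier extraction and 0.43 within the later extraction, and it did not pass in either alone.

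Fewer pairs passed within the earlier extraction, which also held fewer animals. Within the 21 animals of the later extraction, 28 of the 36 pairs passed, and within the 17 animals of the earlier, 5 passed: TGFB1 with TGFB3, TGFB2 with TGFB3, TGFB2 with BMP4, TGFB3 with BMP4, and BMP4 with GDF15. INHBA showed the widest gap. Its r with BMP2 was −0.03 in the earlier extraction and 0.64 in the later extraction, and its r with BMP4 was 0.17 and 0.75. The difference between years was not tested, and Little_R and 537 are both animals of the later extraction. The share among other gene pairs was taken over the pooled animals and is not given within either extraction.

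Holding the summed fibroblast and cardiomyocyte markers fixed left 2 of the 36 pairs past the threshold. These were TGFB1 with TGFB3 (partial r = 0.54) and TGFB2 with TGFB3 (partial r = 0.52), both at an adjusted permutation p of 0.0126. BMP4 with GDF15 kept a partial r of 0.45 (adjusted permutation p = 0.057), and BMP4 with TGFB1 fell from 0.71 to 0.04. Of the 9 fibroblast markers, 3 (COL1A1, COL1A2 and COL3A1) also stand on the list of TGF-beta target genes used below. A further fibroblast marker, DCN, stands on the list of antagonists and decoys used below. Holding extraction year, sex and mitochondrial share fixed instead left 30 pairs.

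**Figure D3:**
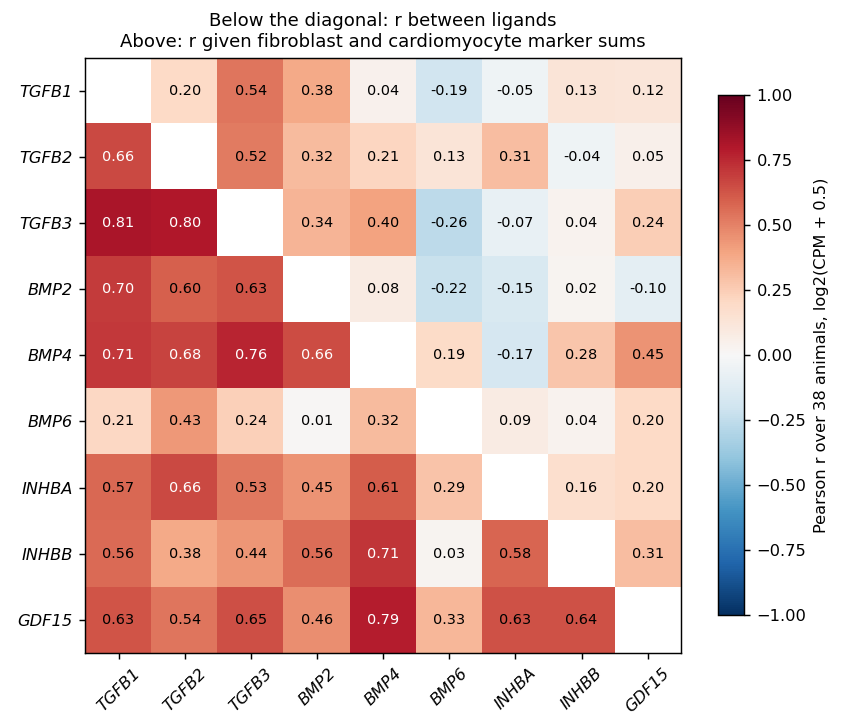
Pearson r between 9 ligands over 38 animals on log2(CPM + 0.5): below the diagonal the plain r, above it the partial r given the summed fibroblast and cardiomyocyte markers. Plain values are highest for TGFB1 with TGFB3 (0.81), TGFB2 with TGFB3 (0.80) and BMP4 with GDF15 (0.79), and partial values run from −0.26 to 0.54, highest for TGFB1 with TGFB3 (0.54) and TGFB2 with TGFB3 (0.52).

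Each ligand was then set against the summed level of 14 marker lists, giving 126 relations. Of these, 56 were positive and 24 negative at an adjusted permutation p of 0.05. The share of all expressed genes that passes with the same sums is not given here. The counts of ligands passing with a sum therefore cannot be called particular to the ligands. The fibroblast sum was positively related to all 9 ligands. By Pearson r, BMP4 was closest to it (r = 0.84, rho = 0.80, adjusted permutation p = 0.000115 and 0.00014, n = 38), with r = 0.77 without Little_R and 537, 0.79 within the earlier extraction and 0.86 within the later extraction. TGFB1 (r = 0.79), TGFB3 (r = 0.78) and TGFB2 (r = 0.75) followed with the same adjusted permutation p of 0.000115 for r. By rho, TGFB2 (0.84) and TGFB1 (0.81) were above BMP4.

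The cardiomyocyte sum ran the other way for 8 of the 9 ligands. INHBB had the strongest negative relation (r = −0.79, rho = −0.75, adjusted permutation p = 0.000115 and 0.00014), with r = −0.70 without Little_R and 537, −0.64 within the earlier extraction and −0.82 within the later extraction. BMP4 was next (r = −0.78, rho = −0.60), and its r was −0.40 within the earlier extraction and −0.89 within the later extraction. BMP6 was the exception, at r = 0.02. BMP6 passed only with the fibroblast sum (r = 0.46, rho = 0.55, adjusted permutation p = 0.00865 and 0.00114) and the atrial sum (r = 0.43, rho = 0.31, adjusted permutation p = 0.0166 and 0.0852). The atrial relation of BMP6 was r = 0.59 within the earlier extraction and 0.05 within the later extraction.

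Macrophage markers were related to TGFB1 alone among the ligands (r = 0.45, rho = 0.52, adjusted permutation p = 0.00951 and 0.00356), with r = 0.39 within the earlier extraction and 0.51 within the later extraction. Whether that relation differed from those of the other ligands was not tested. TGFB1 was also related to lymphocyte markers (r = 0.58, rho = 0.53, adjusted permutation p = 0.00063 and 0.00232). Animal 529, with the highest TGFB1, had the highest lymphocyte sum (1087 CPM, median 43.1) and the highest red cell sum, and without 529 and 4x0043 this r was 0.46. Lymphocyte markers passed by r with TGFB3 (0.49), BMP2 (0.49), TGFB2 (0.44), GDF15 (0.41) and INHBA (0.40) as well. Mesothelial markers passed by r with every ligand but BMP6, from 0.38 with TGFB2 and 0.64 with BMP2 to 0.65 with BMP4 (rho = 0.39), and without Little_R and 389 the r of BMP4 was 0.53.

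**Figure D4:**
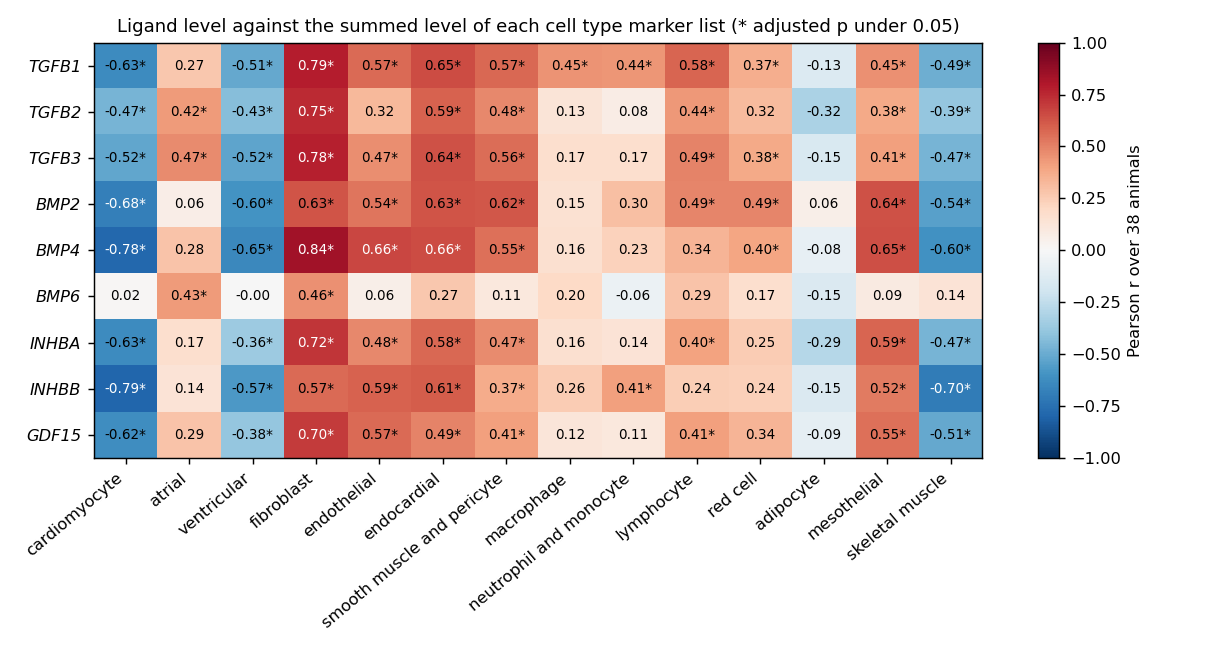
Pearson r over 38 animals between each ligand (rows) and the summed level of each of 14 cell type marker lists (columns), both as log2(CPM + 0.5); a star marks an adjusted permutation p under 0.05. The fibroblast column is positive for all 9 ligands, from 0.46 for BMP6 to 0.84 for BMP4, and the cardiomyocyte column is negative for all but BMP6.

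For each expressed ligand the 3 genes most like it were sought among 10005 named genes whose median reached 6 CPM, as a description with no test. TGFB3 was closest to the fibrillar collagen genes COL1A1 (r = 0.89) and COL5A2 (r = 0.87) and to EMILIN1, an elastic fibre glycoprotein (r = 0.88). TGFB2 was closest to the matrix genes FN1 (fibronectin, r = 0.87), VCAN (versican, r = 0.81) and CCDC80 (r = 0.81). For both ligands these values held in each extraction year, and the lowest was 0.67 (TGFB2 with CCDC80 in the earlier extraction). TGFB1 was closest to no matrix gene but to RAB8B (r = 0.91), a small GTPase of vesicle traffic, STK10 (r = 0.89), a kinase of lymphoid cells, and PLEKHO2 (r = 0.89).

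BMP4 was closest to PLSCR4 (r = 0.91), CHST15 (r = 0.89), a sulfotransferase of chondroitin sulfate, and SPRED2 (r = 0.89), an inhibitor of MAP kinase signalling. BMP2 was closest to BTG3, NUMBL and TBC1D10A, all at r = 0.85. INHBA and GDF15 shared SULF1, a heparan sulfate 6-O-endosulfatase, as the most similar gene (r = 0.79 and 0.81). Next to SULF1, INHBA was most like SKIL (r = 0.76), a SMAD corepressor induced by TGF-beta, and MCL1 (r = 0.76), an antiapoptotic BCL2 relative. Without Little_R and 537 these 3 values of INHBA fell to between 0.62 and 0.65. INHBB was closest to CHIC2, UGCG and TBPL1 (r between 0.81 and 0.82). The best matches of BMP6 were weaker: JCAD, an endothelial junction protein (r = 0.69), UTRN (utrophin, r = 0.67) and ANOS1 (r = 0.66).

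The ligands were next compared with the other genes of their pathway, 121 genes on 8 lists of which 94 reached 6 CPM. The lists share genes: SMAD6 and SMAD7 stand as SMAD genes and BMP targets, and BAMBI as BMP target and antagonist. The counts below are numbers of list genes with r of at least 0.5 with a ligand, beside the share of all other expressed genes that reached it. Of 16 TGF-beta target genes, 14 reached r = 0.5 with TGFB2, against 8.91% of all genes. For TGFB3 the count was 14 of 16 (19.7% of all genes), for TGFB1 14 of 16 (24.7%) and for INHBA 13 of 16 (10.2%). For BMP4 it was 13 of 16 (26.6%), for GDF15 11 (16%) and for BMP2 9 (24.2%). INHBB reached it with 6 (19.6%) and BMP6 with 1 (0.671%). In both extraction years separately, r was at least 0.5 for 12 of the 16 with TGFB3 (13.1% of all genes), 11 with TGFB2 (7.68%), 10 with TGFB1 (16.1%) and 1 with INHBA (0.671%).

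FN1 and TAGLN had the highest mean levels on that list. FN1 was related to all 9 ligands at an adjusted permutation p of 0.05 over the 846 relations of this family, from r = 0.43 with BMP6 to r = 0.87 with TGFB2. TAGLN, a smooth muscle actin-binding protein, was related to 8 of them, most closely to BMP2 (r = 0.67, rho = 0.75, adjusted permutation p = 0.000115), and its r with BMP2 was 0.86 without 529 and 522, 0.49 within the earlier extraction and 0.79 within the later extraction. The target gene POSTN (periostin), named here after its values were seen, had r of −0.47 with BMP2, −0.39 with INHBB and −0.15 with TGFB3. With BMP2, BMP4 and INHBB, 1 gene of the list each was negative past the threshold. No gene of the list was so with TGFB1, TGFB2, TGFB3, BMP6, INHBA or GDF15.

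BMP ligands were compared with 10 BMP target genes. BMP4 reached r = 0.5 with 7 of them (26.6% of all genes), BMP2 with 4 (24.2%) and BMP6 with 0 (0.671%). Of the other ligands, TGFB3 and INHBB also reached it with 4 each (19.7% and 19.6%). TGFB1 and GDF15 did with 3 each (24.7% and 16%), TGFB2 with 2 (8.91%) and INHBA with 0 (10.2%). ID3, an inhibitor of differentiation and a direct BMP target, had r = 0.80 with BMP4 (rho = 0.69, adjusted permutation p = 7.11e-05, r = 0.69 without Little_R and 537, 0.59 within the earlier extraction and 0.88 within the later extraction) and r = 0.73 with BMP2. ID3 had r = 0.18 with BMP6. ID1, its paralog with the highest mean level of the list, had r = 0.17 with BMP4, 0.43 with BMP2 and −0.11 with BMP6.

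GDF15, a target of the integrated stress response, reached r = 0.5 with 10 of the 13 expressed genes of that response (16% of all genes). It was not alone: BMP4 also reached it with 10 (26.6%), BMP2 and INHBB with 9 each (24.2% and 19.6%) and BMP6 with 0 (0.671%). ATF4, the transcription factor at the center of the response, had r = 0.24 with GDF15 (adjusted permutation p = 0.196) and r = 0.58 with INHBB (rho = 0.52, adjusted permutation p = 0.000464), with 0.61 within the earlier extraction and 0.65 within the later extraction.

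Upstream of the targets, genes for latency and activation of TGF-beta followed the ligands in part. Of 15 expressed genes, 10 reached r = 0.5 with TGFB1 (24.7%), 8 with TGFB3 (19.7%) and 5 with TGFB2 (8.91%). The other ligands were alike: BMP4 reached it with 9 (26.6%), BMP2 with 8 (24.2%) and INHBB with 6 (19.6%). GDF15 did with 6 (16%), INHBA with 5 (10.2%) and BMP6 with 0 (0.671%). LTBP4, which binds latent TGF-beta in the matrix, had r = 0.73 with TGFB3 (adjusted permutation p = 7.11e-05), 0.70 within the earlier extraction and 0.76 within the later extraction. ITGAV, an integrin subunit that releases active TGF-beta and had the highest mean level of the list, had r = −0.31 with TGFB3. Of 11 expressed antagonists and decoys, 8 reached r = 0.5 with TGFB1 (24.7%), 7 with TGFB3 (19.7%), 6 with BMP4 (26.6%) and 5 with TGFB2 (8.91%). INHBA and GDF15 reached it with 4 each (10.2% and 16%), BMP2 and INHBB with 3 each (24.2% and 19.6%) and BMP6 with 0 (0.671%). The proteoglycan gene BGN, whose product binds TGF-beta, had r = 0.84 with TGFB3 in the pooled animals. This r was also 0.84 within the earlier extraction, and it was 0.86 within the later extraction.

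Receptors and SMADs were compared in the same way. Of 14 expressed receptors and co-receptors, 3 each reached r = 0.5 with TGFB1, TGFB3 and BMP4 (24.7%, 19.7% and 26.6% of all genes), 4 did with BMP2 (24.2%) and 0 with BMP6 (0.671%). Of 8 SMAD genes, 5 reached it with BMP4 (26.6%), 4 with INHBB (19.6%), 3 with TGFB3 (19.7%), 1 with TGFB1 (24.7%), 0 with TGFB2 (8.91%) and 0 with BMP6 (0.671%). ENG (endoglin), an endothelial co-receptor, had r = 0.66 with BMP2, 0.65 with BMP4 and 0.01 with BMP6. TGFBR2, the type II receptor of TGF-beta, had r = 0.30 with TGFB1 and 0.15 with TGFB3, and neither passed (adjusted permutation p = 0.0951 and 0.434). SMAD4, the partner shared by both branches, passed with none of the 9 ligands and its r lay between −0.07 and 0.29. SMAD5, which acts in the BMP branch, had r = 0.47 with BMP2 and 0.39 with BMP4, and both passed. Among the other ligands of the family, GDF11 had r = 0.50 with TGFB1, and BMP10, an atrial ligand that reached 5920 CPM in animal 549 with a median of 0.0352 CPM, passed with none of the 9.

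Extraction year, sex, RIN, age and virus status were then tested in edgeR across all genes that passed its filter on low counts, with adjustment over all of them. MSTN did not pass that filter, so 9 ligands were tested each time, and in none of the 5 comparisons did a ligand pass an adjusted p of 0.05. Log2 changes below are fitted values with their SE, positive where the first-named group is higher.

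Between the later (21 animals) and the earlier extraction (17 animals), 0 of 9 ligands were called by edgeR, where 16.1% of 15790 genes were called. At an unadjusted p of 0.05, 2 of the 9 passed, against 30.8% of genes, and DESeq2 called 0 with 3 at an unadjusted p of 0.05. BMP6 ranged from 0.692 to 33.6 CPM in the earlier extraction (median 5.11) and from 1.16 to 7.75 CPM in the later extraction (median 3.70), so the groups overlapped. Its log2 change was −0.68 (SE 0.27, edgeR adjusted p = 0.0782). Without animal 570 it was −0.74 and passed at an edgeR adjusted p of 0.0367, the only call that leaving out 1 animal produced, and without 4x0519 it was −0.40 (SE 0.23, edgeR adjusted p = 0.266).

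INHBB had the other unadjusted p under 0.05 between years. It ranged from 0.449 to 8.85 CPM in the earlier extraction (median 3.42) and from 0.361 to 110 CPM in the later extraction (median 3.37). The medians were alike, and the fitted log2 change of 1.18 (SE 0.55, edgeR adjusted p = 0.136) was 0.12 (SE 0.37) without Little_R. The TGF-beta ligands had log2 changes of −0.13 (TGFB1, SE 0.23), −0.64 (TGFB2, SE 0.32) and −0.19 (TGFB3, SE 0.21). Of the 10 macrophage markers, 8 were called lower in the later extraction, as were 3 of the 7 atrial markers tested, 2 of 8 neutrophil and monocyte markers and 1 of 5 endocardial markers. Called higher were 3 of 7 adipocyte, 2 of 5 mesothelial, 1 of 9 endothelial, 1 of 10 smooth muscle and pericyte and 1 of 5 skeletal muscle markers. The atrial list's summed level had medians of 811 CPM in the earlier and 261 CPM in the later extraction. The part of these markers in the ligand values was not tested. Extraction year and the study's earlier and newer libraries cannot be told apart.

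Of 105 pathway genes tested in that comparison, 9 (8.57%) passed, against the 16.1% of all genes, and each is named here after its values were seen. ATF3, DDIT3 (both stress response transcription factors), CHRD (chordin, a BMP antagonist) and BMP1 (a protease that cleaves chordin and procollagens) were higher in the later extraction, by 2.10, 0.52, 1.29 and 1.04 on the log2 scale. TWSG1, INHBC, ACVR1 and SMAD2 were lower, with log2 changes of −0.62, −0.97, −0.28 and −0.28. BMP10 was also called, by extraction and by sex, on the counts of animal 549 (male, earlier extraction), which held 5920 CPM where the second highest animal held 1.32 CPM.

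Between males (16) and females (22), 0 of 9 ligands were called by edgeR and 0 by DESeq2, where 0.215% of genes were called. At an unadjusted p of 0.05, 2 ligands passed, against 8.42% of genes. BMP6 ranged from 2.27 to 33.6 CPM in males (median 5.61) and from 0.692 to 6.49 CPM in females (median 3.61). The groups overlapped over most of the female range, and the animals above it were males. The log2 change was 0.86 (SE 0.27, edgeR unadjusted p = 0.00287, adjusted p = 0.243), 0.59 without 4x0519, 1.48 within the earlier extraction and 0.34 within the later extraction. The change of the sex difference between years was −1.11 (SE 0.52, edgeR unadjusted p = 0.0387, adjusted p = 1).

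None of the 7 atrial markers tested passed by sex, and 6 had an unadjusted p under 0.05 with higher levels in males. Their sum ranged from 70.9 to 2411 CPM in females (median 324) and from 172 to 40963 CPM in males (median 1051). Fibroblast sums had medians of 1811 CPM in females and 2402 CPM in males. The part of these markers in the BMP6 values was not tested. TGFB3 had a log2 change of 0.43 (SE 0.21, edgeR adjusted p = 0.581), from 6.43 to 53.045 CPM in males and 8.50 to 38.6 CPM in females, and it was 0.34 without 529. The other 7 ligands had estimates between −0.34 (INHBB) and 0.46 (BMP2), and their SE was between 0.23 and 0.54. Of the 16 TGF-beta target genes, 15 had estimates above 0 with a median of 0.62, where 49.2% of all genes did with a median near 0. No target gene passed. All 9 fibroblast markers also had estimates above 0, with a median of 0.89, and 6 had an unadjusted p under 0.05. None of them passed. COL1A1, COL1A2 and COL3A1 stand on both lists, and the part of the fibroblast markers in the target estimates was not tested.

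Per unit of RIN, 0 of 9 ligands were called by edgeR, and 0% of 16462 genes were. At an unadjusted p of 0.05, 5 of 9 ligands passed, all with higher levels at higher RIN, against 13.8% of genes in either direction and 7.88% in that one. DESeq2 called 1 ligand, INHBA, and 206 genes. The slopes in edgeR were 0.42 (SE 0.12) for INHBA, 0.39 (SE 0.16) for INHBB, 0.37 (SE 0.12) for GDF15, 0.36 (SE 0.11) for BMP4 and 0.17 (SE 0.09) for BMP6, with adjusted p between 0.153 and 0.361. Little_R has a RIN of 7.8, and without it the slope of BMP4 was 0.09 (SE 0.08), that of INHBB 0.01 (SE 0.12), that of INHBA 0.26 (SE 0.11) and that of GDF15 0.29 (SE 0.11). Within the earlier extraction the slopes of INHBA and GDF15 were −0.08 and −0.08, and within the later extraction they were 0.56 and 0.48. All 9 fibroblast markers had RIN slopes above 0, with a median of 0.25, and 6 had an unadjusted p under 0.05. Their part in the ligand slopes was not tested.

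Per 10 years of age (34 animals), 0 of 9 ligands were called by edgeR or DESeq2, and 0% of 16309 genes by edgeR. At an unadjusted p of 0.05, 1 ligand passed, against 7.41% of genes. TGFB1 had a fitted log2 slope of −0.17 (SE 0.08, edgeR adjusted p = 0.657), and a negative one within each extraction (−0.21 in the earlier and −0.15 in the later). All 10 macrophage markers (median −0.27, 5 with an unadjusted p under 0.05) and all 8 neutrophil and monocyte markers (median −0.43, 3 with such a p) also had slopes below 0, and 0 of them were called. Their part in the TGFB1 slope was not tested. BMP4 had a slope of −0.22 (SE 0.11), TGFB3 one of −0.17 (SE 0.09) and INHBB one of −0.28 (SE 0.16), and the remaining 5 lay between −0.11 and 0.11.

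Among animals of the later extraction, 7 had a positive virus note and 13 had none, and 1 animal that was exposed but tested negative was left out. All 7 came from 1 primate center and none of the 13 did, so virus status and center cannot be told apart. No ligand was called by edgeR or DESeq2, 0% of 16075 genes were called by edgeR, and at an unadjusted p of 0.05 no ligand passed, against 2.82% of genes. BMP4 had the smallest p. It ranged from 4.50 to 20.5 CPM in virus-positive animals (median 8.57) and from 3.74 to 172 CPM in the others (median 9.38). Its log2 change of −1.32 (SE 0.66, edgeR adjusted p = 1) was −0.43 (SE 0.37) without Little_R, and 0.18 without the 5 animals above 48% mitochondrial counts. The fibroblast sum reached 2897 CPM in the virus-positive animals and 11693 CPM in the others, and its part in the BMP4 difference was not tested.

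**Figure D5:**
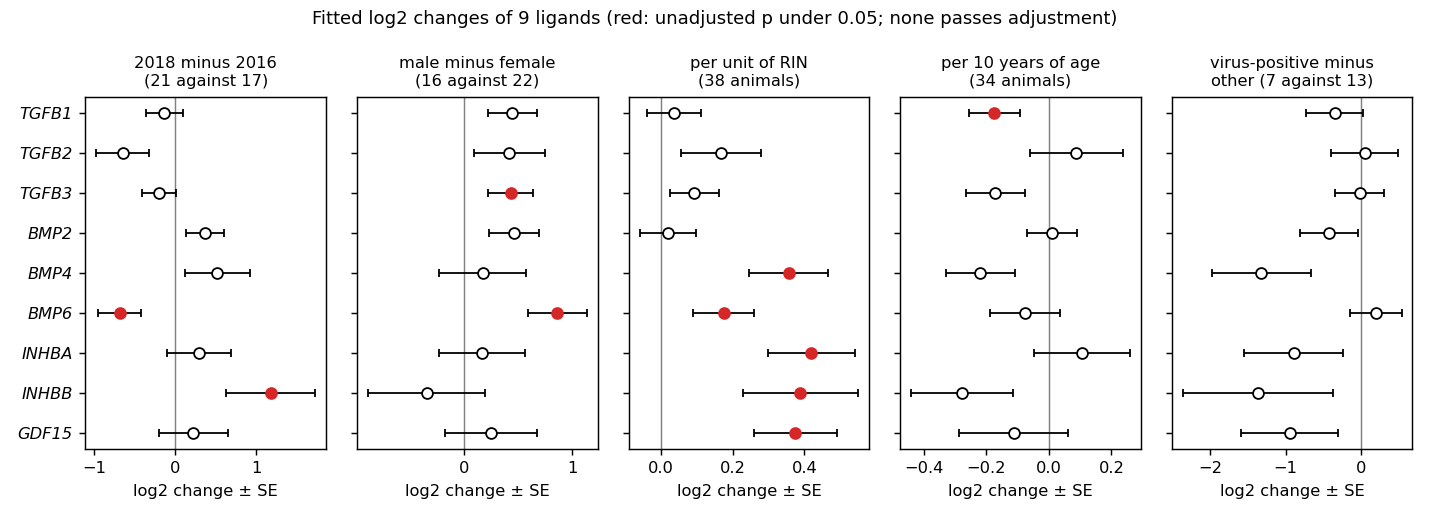
Fitted log2 change with SE for 9 ligands in 5 edgeR comparisons, with the number of animals above each panel and a separate axis scale per panel; red points have an unadjusted p under 0.05 and none passes after adjustment. Red points are BMP6 and INHBB by year, BMP6 and TGFB3 by sex, 5 ligands by RIN and TGFB1 by age.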

How the data were processed

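RNA-seq libraries of 38 chimpanzee hearts were used, with 1 library per animal. The gene count table holds whole-number counts that the authors obtained from STAR 2.6.1b alignments for 31373 annotated genes, deposited without normalization. The second table holds the authors' featureCounts counts on orthologous exons for 44125 genes (Pan_tro_3.0), whose totals per animal scaled the counts to CPM. The strand setting of the gene counts is not given in the sources used here, so antisense reads may be included. In all, 52 per-sample columns matched no sample of this series (49 of them human) and were left out, as was a matrix of normalized scores. No 2 animals had identical counts. Symbols came from a table pairing 18040 identifiers of the gene table with names. BMP4 has 2 identifiers there, of which 1 is in the count table. For the listed genes CLDN5, UPK3B, HBA1, MYLPF, BMP8A and GREM1 no identifier was found. Sequences of the members were not used here.

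The members, gene lists and tests were chosen with earlier results of these data known. Differential expression used edgeR 4.0.16 (filterByExpr, TMM, quasi-likelihood F test) with year and sex as terms, adding RIN or age in turn, and sex and virus status within the later extraction. SE is the absolute log2 change divided by the square root of F. DESeq2 1.42.0 was the alternative. Overdispersion came from negative binomial fits (maximum likelihood) for genes at 6 CPM or more in at least 1 animal, with a LOESS span of 0.75 (statsmodels). Correlations used log2(CPM + 0.5) and two-sided permutation tests with 100000 permutations (20000 for alternatives, 2000 when leaving out animals), adjusted by the Benjamini-Hochberg method within each family. All 10 members are named. Of each pathway list the 2 genes with the highest mean CPM are named, and genes named after their values were seen are marked so. The fits were tested on simulated data. Depth sets the counting error, which at 6 CPM is small beside the spread between animals and matters for GDF15 and MSTN. Intervals and limits cover counting error only. Animals are single samples, so p-values rest on the spread between samples. In that spread, animal, tissue piece and RNA quality cannot be told apart. The tests also treat related animals as independent. Tools were R 4.3.3, Python, numpy, scipy and matplotlib.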

Additional observations from a re-analysis of the deposited data

Results flagged for a closer look

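In the group of 7 virus-positive animals of the later extraction, the BMP4 level of animal 4X0354, 20.5 CPM, stood apart from the other 6, of which the highest had 9.79 CPM (Dixon's test, gap over range 0.669 against a critical value of 0.568). Of the 9 ligands tested in this way, this was the only one to pass, and chance flags about 1 group in 20. In the same animal the atrial marker sum was 16499 CPM and the endothelial sum 3732 CPM, and their part in the BMP4 level was not tested. Over 29 tests of whether the effect of sex, RIN or age on a ligand changed between extraction years, edgeR called 0 after adjustment (lowest adjusted p = 0.669) and 2 had an unadjusted p under 0.05.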

How the results depend on the processing

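The number of ligands called was 0 in each of the 5 edgeR comparisons under all alternatives (DESeq2, DESeq2 size factors, totals on orthologous exons, 2 other filters, no mitochondrially encoded genes, without 537 and Little_R, mitochondrial share or RIN as covariates, Yerkes animals only, each extraction year alone), with 1 exception: DESeq2 called 1 ligand (INHBA) per unit of RIN. Leaving out each animal gave 0 to 1 called between years (1 without 570) and 0 to 0 for sex, RIN, age and virus status. Some directions turned. Per unit of RIN, INHBA (−0.078) and GDF15 (−0.075) turned negative within the earlier extraction, and INHBB (−0.064) and BMP4 (−0.10) without the 5 animals above 48% mitochondrial counts, where BMP4 between virus-positive and other animals became 0.18. The r of BMP2 with BMP6, near 0 throughout, was −0.00852 with totals free of mitochondrial genes, −0.083 with TMM sizes, −0.019 within the earlier extraction and −0.22 given the marker sums. The cause was not tested.

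Pairs passing were 29 of 36, between 25 and 30 under other library sizes, pseudocount, covariates and animal sets, and 29 to 32 when 1 animal was left out, but 5 within the earlier extraction (17 animals) and 2 given the fibroblast and cardiomyocyte sums. Ligands with dispersion above 0 were 8 of 9, and 7 or 8 of the 8 or 9 that reached 6 CPM under the alternatives. GDF15 did not reach it in 6 of the 8 alternatives. Over all genes, the 2536 calls between extractions became 1437 without the 5 animals of high mitochondrial share, 530 with that share as a covariate and fewer than 530 in Yerkes animals alone. The 34 calls by sex became 101 in DESeq2, 53 without a filter, 57 without those 5 animals and 20 within the later extraction. The 0 calls by RIN became 206 in DESeq2, 298 without those 5 animals and 1 or 2 under 4 other settings, and the 0 by age became 5 in DESeq2 and 6 without a filter. Mean levels moved by less than 1 SD between animals, yet some by over 1.5 times: with TMM sizes BMP4 went from 17.2 to 9.18 CPM and INHBB from 6.89 to 3.66 CPM, and with totals that include mitochondrial genes BMP4 went to 8.49 CPM and TGFB1 from 25.5 to 14.1 CPM. The alternatives on high mitochondrial share, marker sums, totals with mitochondrial genes and the leave-one-out of pairs were chosen after seeing the data. No paired analysis was possible because each animal gave 1 library and the labels give no replicate numbers.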
